A study of Mus musculus with 5 samples.

Results

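Cells of the mouse myoblast line C2C12, which can be made to fuse into multinucleated myotubes by lowering the serum, were compared 4 days after the change to differentiation medium with cells that were still proliferating. The day 4 cells had been kept at confluence in 2% horse serum, and the proliferating cells had been harvested at 70 to 80% confluence. Both came from the same line, carried no stated genetic change or other agent, and were extracted with TRIzol. The comparison used 8 of the 20 two-colour spotted arrays of the series, 4 from each group, and 2 of its 5 stages. Each array carried a sample beside 1 common reference, a pool made from 4 proliferating replicates. Whether the pool holds the cultures of the proliferating arrays is not stated. The replicates were described as biological, with 2 labelled in each dye. All 343 of the 1488 distinct probes that carried a mouse miRNA name were considered, and 171 of them were bright enough to be tested. The labels give the day and the medium but not the share of cells that had fused. In such bulk RNA, fewer cells of a type and less RNA per cell cannot be told apart.

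MicroRNAs (miRNAs) are short RNAs that guide Argonaute proteins to messenger RNAs, mostly through pairing of the seed near their 5′ end, and lower the output of those messages. Skeletal muscle makes a small group of them, often called myomiRs, whose genes are switched on by MyoD, myogenin and Mef2 as myoblasts leave the cell cycle. miR-1 and miR-206 share a seed and are known for promoting differentiation, while the miR-133 family is best known for its effects on serum response factor and splicing regulators. The miR-17-92 cluster, by contrast, is known as a driver of proliferation whose transcription is raised by Myc and E2F factors.

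The sequences below are those of some of the miRNAs that passed the test and of relatives that share their seeds. They are mature sequences from RefSeq (GRCm38.p6), written 5′ to 3′, with bases 2 to 8, the seed, in capitals. A sequence was matched for 28 of the 49 probes that passed the test and for 56 of the 171 tested. None was matched for miR-1, miR-422b or miR-143, which rose at least 2-fold and so are missing here. The muscle pair encoded side by side on chromosome 1 is shown first, at chr1:20679055-20679076 and chr1:20682834-20682855, both on the plus strand.
miR-206: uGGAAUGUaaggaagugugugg
miR-133b: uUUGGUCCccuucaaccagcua
miR-26a, at chr9:119031811-119031832 on the plus strand and also made from a gene on chromosome 10, and miR-499, at chr2:155622893-155622913 on the plus strand inside the myosin gene Myh7b, are the other rises shown.
miR-26a: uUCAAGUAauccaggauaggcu
miR-499: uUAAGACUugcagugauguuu
Next come the miRNAs with the seed of miR-17-5p, shown because their probes did not all fall. miR-17-5p lies at chr14:115043684-115043706 and miR-20a at chr14:115044183-115044205, both on the plus strand, and miR-106b at chr5:138165787-138165807 on the minus strand inside Mcm7.
miR-17-5p: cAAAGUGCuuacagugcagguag
miR-20a: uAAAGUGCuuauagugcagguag
miR-106b: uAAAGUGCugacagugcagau
miR-106a: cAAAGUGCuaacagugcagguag
miR-20b: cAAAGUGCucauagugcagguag
miR-18, from the same cluster at chr14:115043867-115043889 on the plus strand, has a seed of its own.
miR-18: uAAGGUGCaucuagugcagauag
The last set holds 2 pairs with a shared seed and miR-31. miR-222 and miR-221 are neighbours on the minus strand at chrX:19146901-19146923 and chrX:19146307-19146329. miR-15b and 1 of the 2 genes of miR-16 are neighbours on the plus strand inside Smc4, at chr3:69009775-69009796 and chr3:69009918-69009939. miR-31 lies at chr4:88910614-88910635 on the minus strand.
miR-222: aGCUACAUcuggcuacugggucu
miR-221: aGCUACAUugucugcuggguuuc
miR-15b: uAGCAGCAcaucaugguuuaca
miR-16: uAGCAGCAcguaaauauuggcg
miR-31: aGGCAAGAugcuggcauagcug

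The labels do not say which dye held the sample on which array, so the direction of every value is likely rather than given. On each day 4 array the channel that lay farther from the same dye on the proliferating arrays counted as that of day 4, which put the sample in red on arrays 1 and 2 and in green on arrays 3 and 4. The gap between the distances of the 2 channels was 0.111 to 0.253 on the log2 scale over 130 probes. It was 0.0238 to 0.0285 on the proliferating arrays. The same channel was chosen on 4 of 4 day 4 arrays when the muscle-specific miRNAs were left out (128 probes), with gaps of 0.0370 to 0.131 against 0.0174 to 0.0322 on the proliferating arrays. The margin was thinnest for day 4 array 3, at 0.0370. Across those 130 probes, which are not independent replicates, red over green correlated at 0.890 to 0.904 between arrays turned alike and at -0.657 to -0.604 between arrays turned oppositely. The choice used the probes' own values. Were the turn the other way on all 4 arrays, every rise below would be a fall. The value table the authors deposited, whose scale, direction and normalisation are not stated and whose day 4 median was -0.00578, had the same sign as these ratios for 49 of 49 probes that passed the test and a correlation of 0.984 with them across probes.

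The miRNAs of skeletal muscle were the largest rises at day 4, led by miR-206 at 17.5 times and miR-133a/miR-133b at 14.4 times the pool. The largest falls were those of miR-17-5p, miR-20a and miR-18 from the miR-17-92 cluster, by 2.10 to 2.81 times, with miR-222 and miR-31. In all, 49 of 171 probes passed the test (28.7%), 25 higher (14.6%) and 24 lower (14.0%), by limma's moderated test with Benjamini-Hochberg adjusted p under 0.05. With median centring in place of loess, 26 were higher and 16 lower, so that 61.9% of the calls were higher in place of 51.0%. At least 2-fold changes numbered 12 (7.02%), 6 in each direction. The test set day 4 arrays against the pool with the proliferating arrays adding to the spread, and 57 probes (33.3%) had an unadjusted p under 0.05. Over all tested probes the median log2 ratio was 0.02, with quartiles of -0.16 and 0.17, and 138 of 171 lay within 0.5 of 0. With the proliferating arrays themselves as the control, whose turn is unknown, 22 to 47 probes passed over the 6 ways to turn them.

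**Figure D1:**
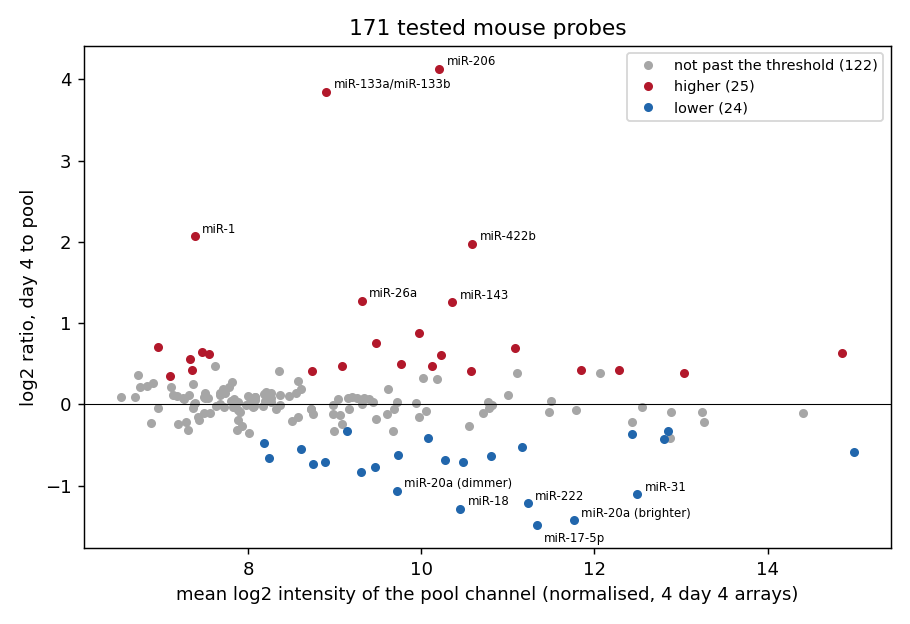
Each point is 1 of the 171 tested mouse probes, with the mean normalised log2 intensity of the pool channel on the x axis and the fitted log2 ratio of day 4 to the pool on the y axis. Red points (25) passed the test and were higher, blue points (24) were lower and grey points did not pass. miR-206 and miR-133a/miR-133b stand at 4.13 and 3.85, well apart from the rest.

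Values by array are log2 ratios of day 4 to the pool with the probe's own dye bias, estimated over the 8 arrays, removed. For miR-206, a skeletal-muscle miRNA known to repress Pax7 and Hdac4, they were 3.67, 3.75, 4.49 and 4.61. All 4 stood far above the proliferating arrays, which departed from the pool by 0.23 to 0.61 in either direction. The spots were bright in both channels, with background-subtracted medians of 16604 to 34654.5 for day 4 RNA and 807.75 to 2287.5 for the pool. The mean ratio was 4.13 ± 0.49 (SD, n = 4 arrays; SE 0.20, limma adjusted p = 3.82e-08).

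One shared probe served miR-133a with miR-133b and cannot separate them. It read 4.03, 3.65, 3.51 and 4.22, against departures of 0.09 to 0.59 on the proliferating arrays, so the groups did not overlap. The mean was 3.85 ± 0.33 (SD, n = 4; SE 0.17, limma adjusted p = 2.42e-08). Day 4 intensities were 3533.75 to 12902 and pool intensities 399 to 822.75.

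miR-1, the myomiR of heart and skeletal muscle, rose less evenly. Its arrays read 2.65, 1.19, 1.17 and 3.27, with departures of 0.17 to 0.67 on the proliferating arrays. Arrays 1 and 4 were high and arrays 2 and 3 low, 1 of each in each dye, yet all 4 lay above every proliferating array. The mean was 2.07 ± 1.06 (SD, n = 4; SE 0.32, limma adjusted p = 5.18e-04), a 4.20-fold rise. The pool signal passed the detection limit on 2 of 4 arrays. Day 4 intensities were 488.75 to 1383.25, far below the 16604 to 34654.5 of miR-206, which shares its seed. Whether the miR-1 probe also bound miR-206 was not tested. The SE pools both groups and is smaller than the day 4 spread alone gives, as it was for 21 of the 49 probes that passed.

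Of the other muscle-specific miRNAs, miR-499, encoded within Myh7b, was detected on 3 of 4 day 4 arrays but in the pool on 1 of 4 and on 0 of 4 proliferating arrays. It read 0.99, 0.49, 0.63 and 0.73, all on the high side. Its mean of 0.71 (SE 0.13, limma adjusted p = 0.00216) was measured against a pool close to background, so no fold is given. Its call was lost in 2 of 6 ways with the proliferating arrays as control, and with the arrays of either dye alone. miR-499 entered the test through its day 4 detection alone, as did miR-150 among the probes that passed and miR-486 among those that did not. miR-486, made in muscle and in red blood cells, did not pass, at 0.09 (SE 0.09, limma adjusted p = 0.586). The probes for miR-133a* and miR-208 were too dim to be tested. Of the 7 muscle-specific probes 5 were tested and 4 passed, all higher, but miR-499 and miR-486 entered through day 4 alone, so the count supports nothing about the list.

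**Figure D2:**
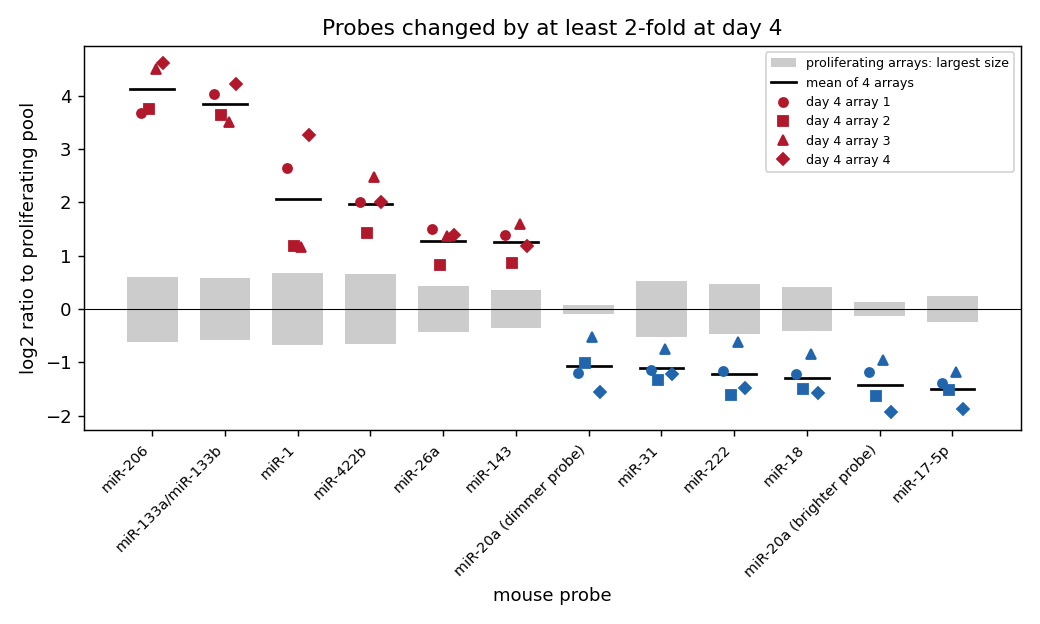
Log2 ratios of day 4 to the pool are plotted for the 12 probes that changed at least 2-fold, with 1 point for each of the 4 day 4 arrays, a line for their mean, and a grey band reaching to the largest departure of any proliferating array from the pool, drawn in both directions. All 12 probes had the day 4 arrays on 1 side and farther from the pool than every proliferating array.

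Beyond the myomiRs, the next largest rise was that of miR-422b, the older name of the 3′ arm of miR-378, which is encoded within Ppargc1b and known to rise in differentiating muscle. Its arrays read 2.00, 1.43, 2.47 and 2.01, with departures of 0.17 to 0.66 on the proliferating arrays. The mean was 1.98 ± 0.43 (SD, n = 4; SE 0.18, limma adjusted p = 1.45e-05), or 3.94-fold. The probe named miR-378, the opposite arm of that hairpin in the older naming, rose to 0.35 (SE 0.09, limma adjusted p = 0.0129). That probe was dim, detected on 2 of 4 day 4 arrays and in the pool on 1 of 4. Its call was lost in 15 of 29 alternative settings, including 6 of 6 ways with the proliferating arrays as control.

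miR-26a, known in muscle for repressing the histone methyltransferase Ezh2, read 1.51, 0.83, 1.36 and 1.40. The proliferating arrays departed by at most 0.43. Its mean was 1.27 ± 0.30 (SD, n = 4; SE 0.13, limma adjusted p = 2.56e-05), a 2.42-fold rise. miR-26b, which has the same seed, was at 0.42 and did not pass. miR-143, best known from smooth muscle and fibroblasts, read 1.39, 0.86, 1.59 and 1.18, also clear of the proliferating arrays, whose largest departure was 0.36. Its mean was 1.26 ± 0.31 (SD, n = 4; SE 0.13, limma adjusted p = 2.56e-05). On both miRNAs array 2 was the lowest.

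The falls were led by miR-17-5p, the founding member of the miR-17-92 cluster, known to target E2f1 and the pro-apoptotic factor Bim. Its arrays read -1.39, -1.52, -1.17 and -1.87, while proliferating arrays departed by 0.01 to 0.25. Pool intensities were 1797.75 to 4057.25 and day 4 intensities 777 to 1255, so the pool was brighter on each array. The mean was -1.49 ± 0.29 (SD, n = 4; SE 0.12, limma adjusted p = 6.09e-06), a 2.81-fold fall. miR-20a, a close relative from the same transcript, had 2 probes. The brighter read -1.19, -1.63, -0.96 and -1.94, with a mean of -1.43 (SE 0.14, limma adjusted p = 2.56e-05), and the dimmer averaged -1.07 (SE 0.14, limma adjusted p = 1.52e-04). Both fell on every array. miR-18, known to repress the matrix gene Ctgf, lay between -1.57 and -0.85 on all 4 arrays and averaged -1.29 (SE 0.13, limma adjusted p = 2.56e-05).

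Of the 14 probes for this cluster and its paralogues, 8 were tested, 5 fell and none rose, with a median of -0.85, where 14.0% of all tested probes fell and their median was 0.02. The fifth fall was that of miR-106b, at -0.63, from the paralogous cluster inside the replication gene Mcm7. With the proliferating arrays as control miR-106b lost its call in 4 of 6 ways. Those that did not pass were miR-17-3p at -0.12, miR-20b at -0.21 and miR-106a at -0.24. Too dim to be tested were miR-93, miR-92 and miR-25, both miR-19 probes (miR-19a, miR-19b) and miR-363. Grouped by seed, AAAGUGC was carried by 6 tested probes, of which 4 fell, in a range of -1.49 to -0.21. The sequences above differ by few bases outside the seed, so a probe may also bind its relatives and their values are not fully separate.

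miR-222, known to repress the cell-cycle inhibitor p27, read -1.15, -1.62, -0.62 and -1.48, with a mean of -1.22 ± 0.44 (SD, n = 4; SE 0.16, limma adjusted p = 1.74e-04). Its neighbour miR-221, which has the same seed, fell by 0.71 on the log2 scale (SE 0.15, limma adjusted p = 0.00396). With the proliferating arrays as control miR-221 lost its call in 3 of 6 ways, and those arrays departed from the pool by up to 0.52. miR-31, known from muscle stem cells for repressing Myf5, read -1.14, -1.33, -0.75 and -1.22, with a mean of -1.11 ± 0.25 (SD, n = 4; SE 0.13, limma adjusted p = 8.70e-05). Array 3 was the nearest to 0 for all 6 probes that fell at least 2-fold.

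Another 17 probes passed at 1.5- to 2-fold, 8 of them higher. The rises were miR-22 (0.88), which is abundant in heart and skeletal muscle, miR-500 (0.76), miR-499 (0.71), miR-23b (0.69), miR-150 (0.64), miR-709 (0.64), miR-532 (0.62) and miR-30b (0.60). Before the dye bias was removed, miR-22 averaged -0.27 on the 2 arrays with day 4 RNA in red and 2.02 on the 2 with it in green. Its call was lost in 3 of 6 ways with the proliferating arrays as control, and with the red pair alone. miR-499 is placed here by its ratio alone, as its pool was close to background. The 9 falls were miR-15b (-0.83), miR-182 (-0.77), miR-183 (-0.73), miR-221 and miR-125b (both -0.71), miR-16 (-0.69), miR-155 (-0.66), miR-106b (-0.63) and miR-699 (-0.62). miR-15b and miR-16 are known for repressing cyclins, and miR-155 for repressing Mef2a in myoblasts. Against the proliferating arrays miR-125b lost its call in 5 of 6 ways, and miR-155, miR-699 and miR-30b each in 3 of 6. The remaining 20 changed by less than 1.5-fold, 11 higher and 9 lower. They ran from miR-690 at -0.58 to miR-152, known to repress the DNA methyltransferase Dnmt1, at 0.56. The other rises in this range were miR-24 (0.49), miR-30a-5p (0.48), miR-27b (0.47), miR-466 and miR-691 (both 0.43), miR-23a (0.42), miR-185 and miR-191 (both 0.41), miR-298 (0.38) and miR-378 (0.35). The other falls were miR-301 (-0.55), miR-207 (-0.52), miR-130b (-0.47), miR-140* and miR-382 (both -0.42), miR-21 (-0.37), let-7d* (-0.33) and miR-494 (-0.33). miR-30a-5p was uneven, at 0.75, 0.11, 0.98 and 0.07, whereas miR-185 was close to even, at 0.43, 0.44, 0.41 and 0.38. Of the 49 probes that passed, 35 were detected on all 4 day 4 arrays in both channels. miR-152 was among the dimmest, detected in the pool on 1 of 4 arrays and in the day 4 channel on 2 of 4.

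Day 4 arrays lay all on 1 side and farther from the pool than every proliferating array for 31 of the 171 tested probes (18.1%). That held for 12 of 12 probes of at least 2-fold, 10 of 17 of 1.5- to 2-fold and 7 of 20 below. For most of the smallest calls a proliferating array departed at least as far as the day 4 array nearest the pool. Whether the groups overlapped there is unknown, since the proliferating arrays could not be turned. With the dye bias removed, 48 of 49 probes had all 4 arrays on the same side. The exception was miR-130b, which averaged -0.47 but stood at 0.08 on array 3. The test had used these same values, so the count of 48 adds no support to the calls. Some probes that did not pass, such as miR-196a and miR-30c, also had all 4 arrays on 1 side. Near the threshold, miR-21 (-0.37, adjusted p = 0.0349), miR-494 (-0.33) and miR-30a-5p (0.48, adjusted p = 0.0433) were just inside. Just outside lay miR-196a (-0.35, adjusted p = 0.0513), miR-193 (0.39) and miR-30c (0.32), all by limma.

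Several miRNAs encoded within 10 kb of each other moved the same way, where 14.6% of all tested probes rose and 14.0% fell. Other clusters, given last, moved less together. All 3 of miR-23b, miR-27b (0.47) and miR-24 (0.49), which lie together inside Aopep, rose. With the proliferating arrays as control miR-24 lost its call in 6 of 6 ways and miR-27b in 4 of 6, while miR-23b kept its call in each. Leaving out day 4 array 4 also ended the calls of both miR-24 and miR-27b, as did array 2 for miR-24 and array 1 for miR-27b. miR-24 is also made from the other cluster of this family, where miR-23a rose to 0.42, a call lost in 6 of 6 ways, and miR-27a, at 0.10, did not pass. miR-27b is known for repressing Pax3 in muscle progenitors. miR-500 and miR-532, both inside the chloride transporter gene Clcn5, rose, while miR-188 from that cluster was at 0.12 and did not pass. miR-15b and miR-16 both fell, though miR-16 lost its call in 4 of 6 ways. miR-182 and miR-183, known from sensory organs, both fell, and their neighbour miR-96, at -0.31, did not pass. In the large cluster on chromosome 12 only miR-382 and miR-494 passed of 9 tested, both lower. In the cluster of miR-466 that miRNA alone passed, of 6 tested. miR-26a, miR-191, miR-298 and miR-30b rose, while their tested neighbours miR-546, miR-425, miR-296 and miR-30d did not pass.

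Seed families did not all move together. AGUGCAA was carried by 3 tested probes, of which miR-130b and miR-301 (-0.55) fell and miR-130a, at 0.38, did not pass. With the proliferating arrays as control miR-130b lost its call in 6 of 6 ways and miR-301 in 5 of 6. AGCAGCA had 2 falls among 4, miR-15b and miR-16. GAGGUAG, the let-7 seed, had no call among 7 mouse probes, although a let-7a-e probe without a mouse name read 0.46 (SE 0.12, limma adjusted p = 0.0418) and passed. In the let-7 list the single fall among 8 tested was let-7d* (-0.33), the opposite arm of its hairpin, which has another seed. let-7d* lost its call in 13 of 30 alternatives. The miR-30 family, tied to cardiac and skeletal muscle, had 2 rises among 5 tested, with a median of 0.32, where 14.6% of all tested probes rose. One of them, miR-30a-5p, lost its call in 18 of 30 alternatives. In the list of other miRNAs linked to muscle differentiation 6 of 18 tested probes rose and 5 fell, with a median of 0.09, where 14.6% of all tested probes rose and 14.0% fell.

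The miRNAs that mark other cell types were mostly near the limit of detection. None of the probes for endothelial (2), epithelial (7) or liver and pancreas (5) miRNAs was bright enough to be tested. Of the 2 tested among 7 blood miRNAs, miR-150 rose to 0.64, having entered the test through day 4 alone. None of the 2 neuronal and 3 embryonic stem cell probes that were tested passed. In the smooth muscle and fibroblast list miR-143 and miR-152 rose and miR-21 fell, of 6 tested among 7. Over all tested probes 14.6% rose and 14.0% fell. miR-21 lost its call in 20 of 30 alternatives and miR-152 in 11 of 29, while miR-143 kept its call in 30 of 30. C2C12 cells are a cultured line, and the part of cell types in these values was not tested.

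Before the dye bias was removed, the pair of arrays with day 4 RNA in red and the pair with it in green had the same sign for 42 of the 49 probes that passed and for 84 of the 171 tested. In 4 of the 49 the dye bias was over 0.5, namely miR-22 (-0.92), miR-140* (0.74), miR-125b (-0.71) and miR-709 (-0.66). The 12 probes of at least 2-fold had the same sign in both dyes. With the red pair only, 22 probes passed, and with the green pair only 18, both chosen after the data were seen.

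**Figure D3:**
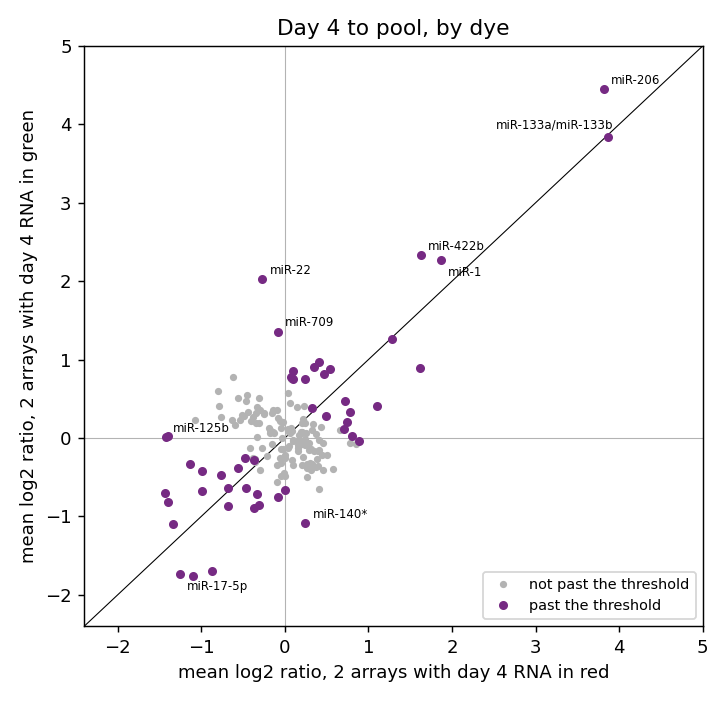
Mean log2 ratio of day 4 to the pool is plotted for the 2 arrays with day 4 RNA in red (x axis) against the 2 with it in green (y axis), dye bias not removed, for all 171 tested probes. Purple points are the 49 that passed, and the line marks equal values. miR-133a/miR-133b lies near the line (3.86 in red, 3.84 in green) and miR-206 above it (3.81 and 4.45). miR-22, miR-709, miR-125b and miR-140* lie farther from it.

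Probes that name only plant miRNAs gave a measured background. Of 73 tested, 6 passed (8.22%), all higher, with p adjusted over all probes without a mouse name. At the largest unadjusted p among the mouse probes that passed (0.0124), 11 of the 73 would have been called (15.1%), 10 higher and 1 lower. The ratios of the 73 ran from -0.45 to 0.65. Of the 49 mouse probes that passed, 23 had ratios larger in size than every plant probe, 10 of them higher and 13 lower, and 26 did not. miR-499, measured against a pool close to background, was inside the first group, and miR-150, miR-709, miR-532 and miR-30b were inside the second. Among all 335 tested probes without a mouse name, 31 passed (9.25%), 19 higher and 12 lower.

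The earlier stages give values beside those of day 4, all against the same pool. The mean log2 ratio of miR-206 was 3.14 at day 1 and 3.75 at day 2. miR-133a/miR-133b stood at 2.44 and 3.56, and miR-1 at 0.33 ± 0.39 and 1.85 ± 1.06 (SD, n = 4 arrays each). The day 1 values rest on a less sure turn. On day 1 array 4 the gap between the channels was 0.0228, below every proliferating array, and the chosen channel changed when the muscle-specific miRNAs were left out. The day 1 direction therefore rests in part on miR-206 and miR-133a/miR-133b themselves. No day 2 array changed its turn when the muscle-specific miRNAs were left out. On day 2 array 2, however, the gap without them was 0.0291, within the 0.0174 to 0.0322 of the proliferating arrays. miR-17-5p was at -0.65 and -1.08, miR-222 at -0.21 and -0.91, and miR-31 at 0.02 and -0.43. These are values side by side, with no test between days.

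**Figure D4:**
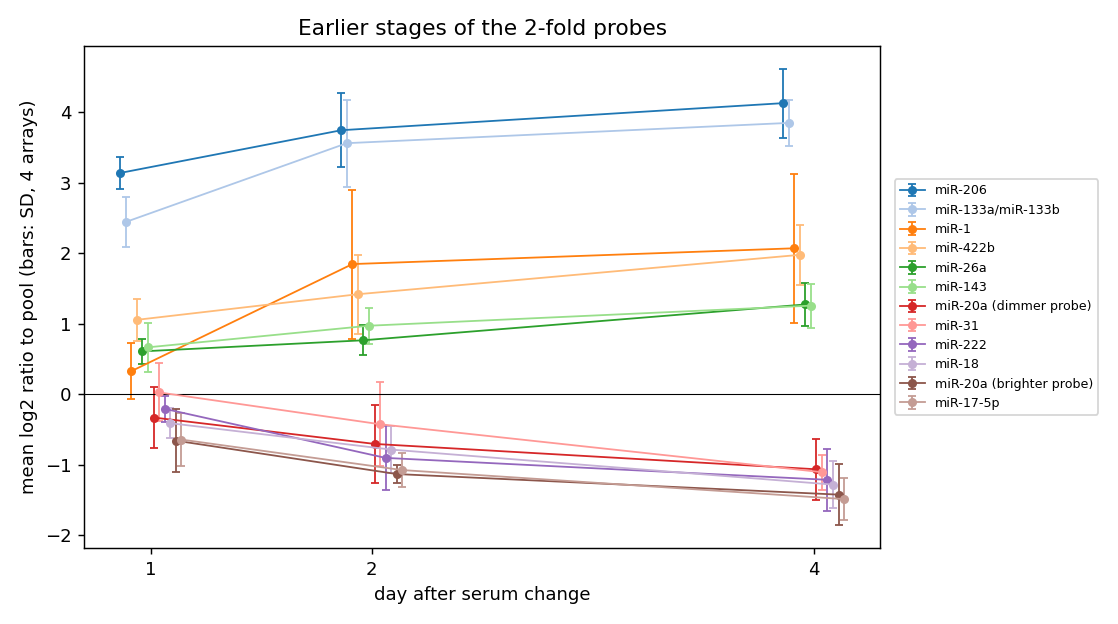
Mean log2 ratios to the pool at days 1, 2 and 4 are plotted for the 12 probes that changed at least 2-fold at day 4, with the SD over 4 arrays as bars and the day after the change of serum on the x axis. At day 4 the 6 rises lie between 1.26 and 4.13 and the 6 falls between -1.49 and -1.07. All days share the pool. The direction of the arrays is not given by the labels, and that of day 1 array 4 changed when the muscle-specific miRNAs were left out. On day 2 array 2 the gap between the channels without them was no wider than on the proliferating arrays.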

How the data were processed

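Total RNA from C2C12 cells was labelled and hybridised on 2-colour spotted arrays beside a pool of proliferating RNA, per the labels. The deposited files give raw foreground and morphological background intensity per spot and channel, per the file headers, with 3072 spots per array. The deposited log2 ratios of the spots were not used. The authors' value table holds 1 log2-like value per probe and stage and was used only for comparison. The scanner and image software are not given in the sources used here.

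Median intensities were background-corrected with normexp (offset 50) and normalised by global loess, with control spots at weight 0, in limma 3.58.1 (R 4.3.3). Repeat spots were averaged. A spot counted as detected above percentile 95 of 114 blank spots (empty or negative control) in its own channel. A probe was tested when detected on at least 3 of 4 arrays of day 4 (sample channel) or proliferating cells (either channel). Of the 171 tested, 7 passed through day 4 alone, and 2 of those were called. The number of arrays limits the precision. The model held a dye term and a day 4 effect over 8 arrays (6 residual and 4.93 prior degrees of freedom). lmFit and eBayes were used, two-sided, with Benjamini-Hochberg adjustment over the 171 probes, and the procedure was tested on simulated data. Proliferating arrays could not be turned and entered as spread around the pool. Probes without a mouse name were adjusted among themselves. Named probes were those past the threshold, tested muscle-specific miRNAs, partners by seed or cluster, members of the lists with the smallest p, and the 3 probes nearest the threshold on each side. The other-species probes named were picked with their values known. The members and lists were chosen with earlier results of these data known. Gene positions and sequences are RefSeq's, GRCm38.p6.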

Additional observations from a re-analysis of the deposited data

Results flagged for a closer look

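On miR-15b, day 4 array 3 stood apart at -0.54 on the log2 scale, while the other arrays lay between -0.95 and -0.91. The gap was 0.896 of the whole range, above Dixon's 95% critical value for 4 arrays. It was the only such value among 50 probes checked, and chance gives about 1 in 20.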

How the results depend on the processing

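Over 28 planned settings with a test, 16 of the 49 probes passed in every one, 9 higher (miR-23b, miR-500, miR-150, miR-143, miR-26a, miR-1, miR-422b, miR-206 and miR-133a/miR-133b) and 7 lower (miR-17-5p, both miR-20a probes, miR-18, miR-222, miR-31 and miR-15b). Among these, miR-150 had entered the test through day 4 alone, and its 0.64 lay within the range of the plant probes. Other background corrections, normalisations, detection limits and array sets left 41 to 49 probes past the threshold. Leaving out a day 4 array gave 38 to 47, with 19 to 25 higher and 18 to 24 lower, and leaving out a proliferating array 48 to 49. In all 8 of these, 35 probes passed. The counts also moved with the proliferating arrays as the control, where 16 probes passed in all 6 ways of turning them. The ways gave 26 (15 higher, 11 lower), 26 (12, 14), 47 (18, 29), 35 (21, 14), 22 (14, 8) and 29 (14, 15). The red pair of arrays gave 22 (7 higher, 15 lower) and the green pair 18 (12, 6), each with fewer arrays. Among the 49, signs turned only under print-tip loess, where miR-690 became 0.067, miR-140* 0.023 and miR-298 -0.0073. miR-486, which had not passed, became -0.024 under median centring and -0.049 in the second way. The causes were not tested. No paired analysis was possible because the labels give the arrays no replicate numbers. Small changes near the plant-probe range, dim probes and the unstated dye direction limit the values.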

Other observations

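Probes designed for other species but naming miRNAs of the same families gave values of their own. A probe for miR-133a of macaque and orangutan read 3.59 (SE 0.20, limma adjusted p = 5.29e-07), and the rat miR-1 probe 2.43 (SE 0.40, limma adjusted p = 0.00229). An insect miR-1 probe read 1.77 (SE 0.21, limma adjusted p = 3.78e-04). A probe naming miR-18b of human and other species read -1.22 (SE 0.17). A zebrafish miR-133c probe read 2.01 (SE 0.21, limma adjusted p = 1.26e-04), with the pool detected on 0 of 4 arrays. A miR-1b probe of chicken and frog read only 0.47 (SE 0.13, limma adjusted p = 0.0491), with the pool detected on 1 of 4. These probes may bind the mouse miRNA, which was not tested. They are further readings on the same arrays, not further samples.

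A probe for miR-7 of insects, cattle and fish read -1.56 (SE 0.20, limma adjusted p = 4.60e-04). It was detected in the pool on 4 of 4 arrays and in the day 4 channel on 2 of 4. For miR-31, a probe naming miR-31 of chicken and miR-72 of Caenorhabditis elegans read -0.59 and another miR-31 probe read -0.10 and did not pass. A let-7a probe of human and other species read 0.31 (limma adjusted p = 0.0616) and did not pass.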
